A study of Mus musculus with 21 samples.

Results

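The genes described here are the inflammasome sensors Nlrp3, Nlrp1b, Nlrc4 and Aim2, the activators and adaptor Nek7, P2rx7 and Pycard, the caspases Casp1 and Casp4, and the pore former Gsdmd. They are 10 of the 27179 genes on which the authors counted reads, and were found by matching each symbol to its Entrez Gene number. Podocyte fractions had been collected from digested kidney cortex of single male C57BL/6J wildtype mice with antibodies to nephrin and magnetic beads, with 1 mRNA library per mouse. The 6 young mice were 4 months old and untreated. This number follows the labels, while the methods give a different number for archived control mice of that age without saying whether these were the mice sequenced. The 7 saline mice and the 8 NLRP3i mice were 19.5 months old at collection and had received injections for 6 weeks from 18 months of age, of saline or of 10 mg/kg MCC950, a small molecule that binds and inhibits the NLRP3 protein. The young mice received no saline injections, so age and the injections cannot be told apart in a comparison with them. The beads enrich podocytes without purifying them, so a value below is a level in the fraction, and fewer cells of a type and less RNA per cell cannot be told apart.

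An inflammasome is a protein complex that assembles when a cytosolic sensor meets a sign of infection or damage. NLRP3 answers to potassium efflux and many forms of cell stress, NLRP1B to bacterial proteases, NLRC4 to bacterial flagellin and secretion proteins through NAIP receptors, and AIM2 to double-stranded DNA in the cytosol. The sensor recruits the adaptor ASC, the product of Pycard, which gathers caspase-1. Caspase-1 matures interleukin-1 beta and interleukin-18 and cleaves gasdermin D, whose fragment opens pores in the plasma membrane. Caspase-11, the product of Casp4, binds bacterial lipopolysaccharide directly and cleaves gasdermin D too. In the kidney these proteins are best known from macrophages and dendritic cells, and they have also been studied in podocytes.

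The regions before the start sites are shown first, with Nek7 at the head. Its level differed less between the libraries of a group than that of any other member. The sequence before its start also differed from theirs, and a link between the spread and the sequence was not tested. RefSeq windows of the GRCm38.p6 assembly were at hand for 9 of the 10 genes, and the 250 bases before the start were read from each. The 5 genes printed are Nek7 and 4 of the others, which take in each role and include Nlrp3, the target of MCC950. Capitals mark each CG dinucleotide, and each sequence runs 5′ to 3′ toward the start site.

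Nek7 (chr1:138619758-138620007, minus strand): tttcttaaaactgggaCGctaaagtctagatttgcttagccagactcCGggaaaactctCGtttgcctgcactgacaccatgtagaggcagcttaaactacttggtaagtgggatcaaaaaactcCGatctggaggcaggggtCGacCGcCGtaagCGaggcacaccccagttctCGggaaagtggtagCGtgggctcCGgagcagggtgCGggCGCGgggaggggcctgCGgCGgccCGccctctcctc
P2rx7 (chr5:122643677-122643926, plus strand): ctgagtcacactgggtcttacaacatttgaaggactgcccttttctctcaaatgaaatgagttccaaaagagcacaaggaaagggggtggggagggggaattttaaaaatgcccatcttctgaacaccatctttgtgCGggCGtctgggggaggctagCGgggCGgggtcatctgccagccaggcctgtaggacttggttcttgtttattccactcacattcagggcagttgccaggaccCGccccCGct
Nlrp3 (chr11:59541319-59541568, plus strand): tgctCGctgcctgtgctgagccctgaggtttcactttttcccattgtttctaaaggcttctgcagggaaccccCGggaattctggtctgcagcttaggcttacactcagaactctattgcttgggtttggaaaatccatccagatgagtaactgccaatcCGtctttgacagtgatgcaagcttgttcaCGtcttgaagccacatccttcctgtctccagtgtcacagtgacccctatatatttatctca
Casp1 (chr9:5298267-5298516, plus strand): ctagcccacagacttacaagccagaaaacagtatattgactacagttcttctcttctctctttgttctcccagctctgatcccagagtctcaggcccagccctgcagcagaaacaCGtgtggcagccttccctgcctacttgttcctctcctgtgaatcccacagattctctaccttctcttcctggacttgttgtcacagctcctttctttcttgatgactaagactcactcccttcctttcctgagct
Pycard (chr7:127993868-127994117, minus strand): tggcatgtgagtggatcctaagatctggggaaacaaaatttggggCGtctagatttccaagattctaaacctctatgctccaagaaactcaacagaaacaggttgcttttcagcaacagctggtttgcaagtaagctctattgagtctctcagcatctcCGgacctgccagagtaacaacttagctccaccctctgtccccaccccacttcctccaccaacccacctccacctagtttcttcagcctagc

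The Nek7 window held 17 CG dinucleotides, more than 76.5% of the 32851 windows in the table. The 12 windows of the other 8 genes held between 0 and 6, and all 12 were at or under the median of 6 over all windows. Casp1 held 1 and both Nlrp1b windows held 0. The letters GAGGAAG, a core bound by ETS-family factors such as the myeloid regulator PU.1, were searched on both strands, and 1 window each of Nlrp3, Nlrp1b, Aim2 and Pycard held them, against 10.6% of all windows. For Nlrp3 it was the window of a later start, not the one printed. The letters TTGCNNAA were in windows of Nlrp1b, Nlrc4 and Pycard, against 9.56% of all, and the interferon-stimulated response element was in none of the members' windows, against 2.98% of all. These are descriptions of letters in a short window and show no binding, nor any link of CG count to spread. Pycard, with 2 CG dinucleotides, had a coefficient of variation of 8.93% in the young group, beside 6.37% for Nek7. It had 15.2% beside 6.82% in the saline group and 17.4% beside 8.70% in the NLRP3i group.

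The libraries held 27375870 to 36827823 counts in the young, 45772937 to 84876399 in the saline and 35440472 to 58247271 in the NLRP3i group, of which 51.5% to 80.4%, 63.0% to 79.2% and 49.9% to 63.7% lay on the 15 mitochondrial genes. The mitochondrial shares of the saline and NLRP3i libraries barely overlapped. Levels are given as CPM, the counts scaled to library size with TMM factors, and differences as log2 fold changes. The library size includes the mitochondrial counts, so the CPM levels depend on them. The differences were tested with edgeR's quasi-likelihood method, in a single model of the 3 groups that covered 16377 genes. A gene is called when its Benjamini-Hochberg adjusted p was under 0.05. The podocyte content was followed with 13 podocyte markers, including Nphs1, Wt1, Podxl and Synpo. None of them was at 0 in any library, and their summed level ran from 714 to 1529 CPM in the young, from 256 to 430 in the saline and from 338 to 562 in the NLRP3i libraries. All 13 were called lower in saline than in young libraries, and 4 were called higher in NLRP3i than in saline libraries. The 12 myeloid markers, including Csf1r, Cd68, Adgre1 and Ptprc, were also above 0 in every library. Their summed level ran from 614 to 3008 CPM in the young, from 2172 to 4752 in the saline and from 1340 to 4439 in the NLRP3i libraries. Tubule markers were high too. Those of the proximal tubule summed to 1151 to 3551 CPM in the young, 922 to 2336 in the saline and 1651 to 3921 in the NLRP3i libraries. Those of the loop of Henle and distal tubule summed to 2945 to 4134, 3058 to 4589 and 2307 to 4145 CPM. Sums of different lists do not measure the share of each cell type.

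All 10 genes passed the filter on low counts, with at least 87 reads in any library. Compared per kilobase of transcript, Nek7 stood first in the young group at 8.74 ± 0.557 CPM per kilobase (SD, n = 6), followed by Gsdmd at 6.87 ± 2.01 and Nlrp3 at 5.85 ± 3.02. Gsdmd stood first in the saline group at 10.4 ± 1.41 (SD, n = 7), with Nlrp3 at 8.71 ± 2.20 and Nek7 at 7.77 ± 0.530. Nlrp3 stood first in the NLRP3i group at 11.2 ± 4.49 (SD, n = 8), above 82.3% of the 14592 genes that had a length. Nlrc4 stood last in each group, at 1.48 ± 0.663 in the young, 2.08 ± 0.458 in the saline and 1.83 ± 0.603 in the NLRP3i group. Of the 9 neighbouring pairs in each order, only Nlrp1b and Nlrc4 in the saline group had ranges that did not overlap. Within single libraries the order was the same throughout for Nek7 above Gsdmd and Nlrp1b above Nlrc4 in 6 of 6 young libraries, for Gsdmd above Nlrp3, Pycard above Aim2 and Nlrp1b above Nlrc4 in 7 of 7 saline libraries, and for P2rx7 above Nlrp1b and Nlrp1b above Nlrc4 in 8 of 8 NLRP3i libraries. The other 20 neighbouring pairs changed places in at least 1 library.

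**Figure D1:**
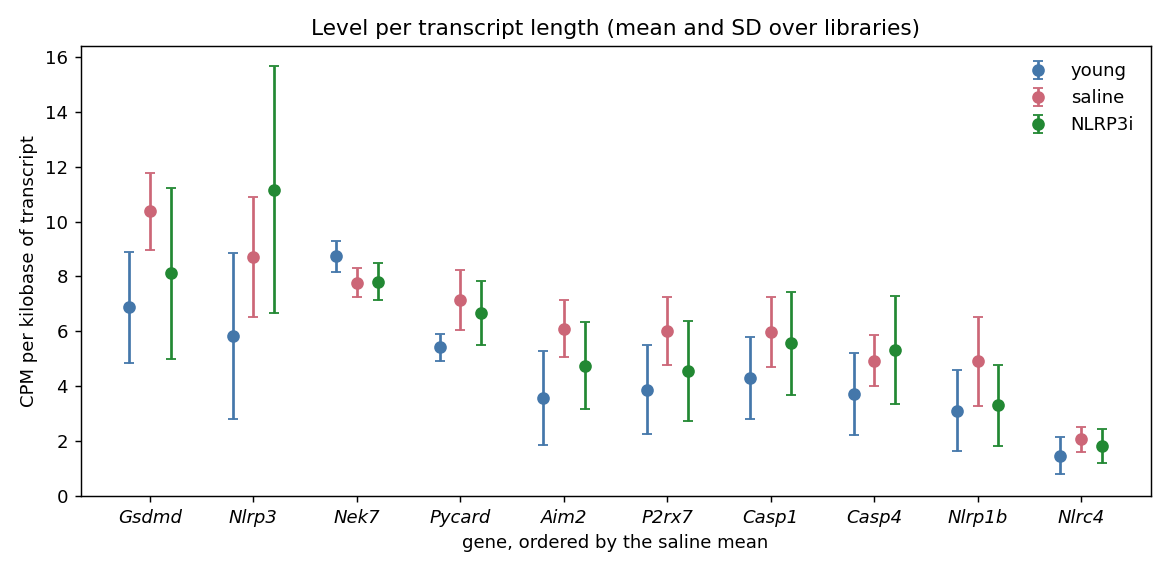
Level per transcript length of the 10 genes (y axis, CPM per kilobase) with the mean and SD over the 6 young, 7 saline and 8 NLRP3i libraries, ordered by the saline mean. Nek7 has the narrowest error bars, and Nlrc4 is lowest in all 3 groups.

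The first comparison, saline against young, asks what changed with age. Among the sensors, Aim2 was called higher in the middle-aged saline fractions and the other 3 were not called. Nlrp3 lies on chr11:59541569-59566955. Its level was 6.47, 22.6 and 40.5 CPM (lowest, median and highest library) in the young, 21.4, 37.8 and 48.1 in the saline and 23.0, 40.0 and 81.1 in the NLRP3i group. Only 1 of the 7 saline libraries was above the highest young library, and 3 of the 6 young libraries were below every saline library. The fitted difference of saline from young was 0.58 ± 0.32 (log2, SE) with an adjusted p of 0.193.

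Aim2 (chr1:173349547-173466040) ran at 4.26, 11.3 and 16.2 CPM in the young, 14.6, 17.0 and 23.2 in the saline and 8.40, 11.8 and 22.0 in the NLRP3i group. All 7 saline libraries were above the young median and 5 of the 6 young libraries were below every saline library, so the groups overlapped in 1 young mouse only. Aim2 rose by 0.78 ± 0.27 on the log2 scale, a 1.72-fold difference, with an adjusted p of 0.0389. That call was lost when young replicate 1, 2 or 3 or saline replicate 2, 3, 4 or 7 was left out, with adjusted p values up to 0.101.

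Nlrp1b (chr11:71152574-71242514, minus strand) ran at 4.08, 13.5 and 22.6 CPM in the young, 11.2, 19.98 and 32.6 in the saline and 7.36, 10.8 and 24.5 in the NLRP3i group. Its saline libraries were centred above the young ones and overlapped them, with a difference of 0.66 ± 0.32 and an adjusted p of 0.140. The gene sits beside the near-identical Nlrp1a and Nlrp1c-ps, between which reads may be split, so its level is uncertain. Nlrc4 (chr17:74426255-74459144) ran at 2.76, 6.01 and 8.99 CPM in the young, 5.91, 7.92 and 10.5 in the saline and 5.13, 5.96 and 10.8 in the NLRP3i group. Its groups overlapped, and the difference with age was 0.50 ± 0.26 with an adjusted p of 0.174.

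Of the activators and the adaptor, Pycard was called higher with age, and Nek7 had the only lower fitted level of the 10 genes. Nek7 (chr1:138483837-138619757), a kinase that binds NLRP3 and is needed for its assembly, ran at 33.9, 37.8 and 40.6 CPM in the young, 30.0, 33.2 and 37.2 in the saline and 29.1, 33.5 and 37.8 in the NLRP3i group. No saline library reached the young median, and 4 of 7 were below every young library. The difference was -0.17 ± 0.07 with an adjusted p of 0.0686, and DESeq2 on the same counts gave -0.19 with an adjusted p of 0.0365. P2rx7 (chr5:122643927-122692336), the ATP-gated channel whose opening lets potassium out, ran at 7.96, 19.4 and 30.4 CPM in the young, 19.8, 27.5 and 36.1 in the saline and 9.26, 20.9 and 32.8 in the NLRP3i group. All 7 saline libraries were above the young median, and the difference of 0.63 ± 0.28 had an adjusted p of 0.109.

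Pycard (chr7:127991373-127993867) ran at 9.98, 11.6 and 12.8 CPM in the young, 11.6, 15.4 and 18.2 in the saline and 10.4, 14.3 and 16.9 in the NLRP3i group. The young libraries lay close together, and 6 of the 7 saline libraries were above all of them. Pycard rose by 0.40 ± 0.12 on the log2 scale, a 1.32-fold difference, with an adjusted p of 0.0176. The call was lost when young replicate 2, 3 or 4 or saline replicate 2, 3 or 7 was left out, with adjusted p values up to 0.0775. Its exons share 485 bases with Gm45205 on the opposite strand, and those of Nek7 share 118 with the antisense gene Gm28501. The strand setting of the counting is not given in the sources used here, so reads of these partners cannot be told apart.

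The caspases and gasdermin D had higher fitted levels in saline than in young libraries without a call. Casp1 (chr9:5298517-5307281) ran at 3.48, 6.97 and 8.97 CPM in the young, 7.23, 8.28 and 12.9 in the saline and 5.55, 7.54 and 13.2 in the NLRP3i group. All 7 saline libraries were above the young median and 3 were above every young library, with a difference of 0.49 ± 0.23 and an adjusted p of 0.135. Its neighbour Casp4 (chr9:5308849-5336791) ran at 2.51, 5.47 and 7.73 CPM in the young, 4.73, 7.43 and 8.77 in the saline and 4.39, 6.81 and 12.5 in the NLRP3i group. These groups overlapped, and the difference of 0.42 ± 0.26 had an adjusted p of 0.258.

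Gsdmd (chr15:75862144-75867408) ran at 6.50, 14.3 and 15.0 CPM in the young, 16.2, 17.7 and 23.5 in the saline and 6.83, 13.1 and 23.8 in the NLRP3i group. It was the only one of the 10 genes whose saline and young libraries did not overlap, as was true of 9.37% of all genes tested. The difference was 0.60 ± 0.23 with an adjusted p of 0.0654, just over the threshold. With only the young and saline libraries in the fit, the same difference had an adjusted p of 0.0235. That was 1 of 11 alternative fits, and the other 10 gave no call. Over the 11 fits the difference ran from 0.07 to 0.62, with adjusted p values up to 0.922.

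**Figure D2:**
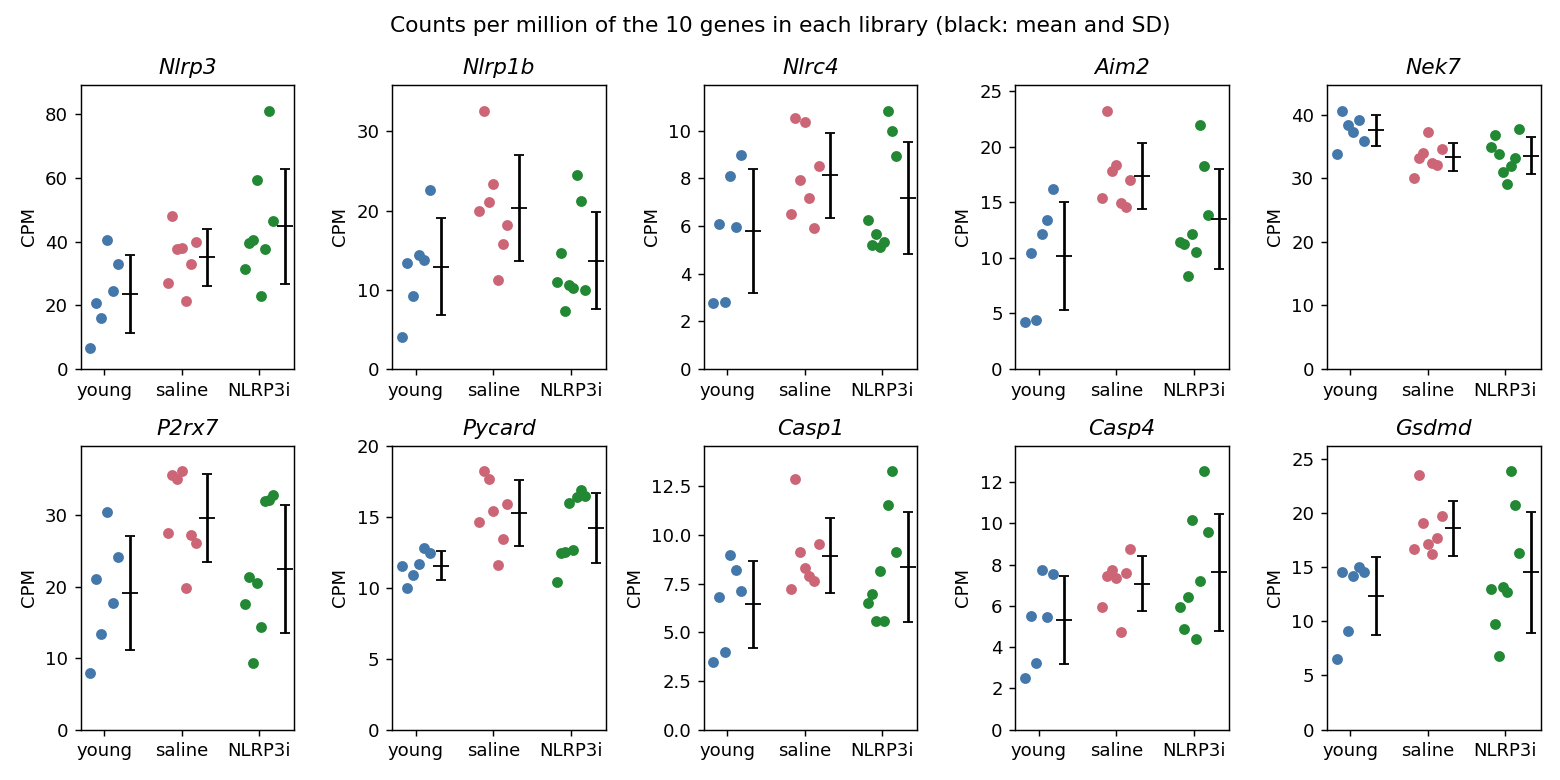
CPM of each of the 10 genes (y axes from 0) in every young, saline and NLRP3i library, with the group mean and SD in black. The saline and young points separate for Gsdmd, Nek7 points stay between 29.1 and 40.6 CPM, and the highest Nlrp3 point is an NLRP3i library at 81.1 CPM.

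In all, 2 of the 10 genes were called with age, both higher, where 24.6% of all genes tested were called, 12.2% as higher and 12.4% as lower. At an unadjusted p under 0.05 the count was 6 of 10, against 36.9% of all genes. The median log2 difference of the 10 genes was 0.54, beside 0.02 over all genes, and 9 of 10 were positive, beside 52.7% of all genes. The share called was close to the background, and the median was above it.

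The second comparison, NLRP3i against saline, asks what the NLRP3 inhibitor changed in middle-aged fractions. None of the 10 genes was called by edgeR, where 16.8% of all genes were called, 11.9% as higher and 4.86% as lower. The count was also 0 of 10 at an unadjusted p under 0.05, against 31.6% of all genes. DESeq2 called 0 at an adjusted and 1 at an unadjusted p under 0.05. No member's groups were apart, as were those of 1.74% of all genes. The median difference of the 10 genes was -0.14, beside 0.00281 over all genes, and 3 of 10 were positive.

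The intervals show how large a difference these libraries leave possible. For Nlrp3 the difference of NLRP3i from saline was 0.36 ± 0.29, with a 95% interval from -0.25 to 0.96 and an adjusted p of 0.425. Its 8 NLRP3i libraries spread 3.52-fold from lowest to highest, and 2 of them were above every saline library. For Nlrp1b it was -0.57 ± 0.29, from -1.17 to 0.04, with an adjusted p of 0.190, and 5 of the 8 NLRP3i libraries were below every saline library.

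For Aim2 the difference was -0.36 ± 0.24, from -0.87 to 0.15, and 6 of 8 NLRP3i libraries were below every saline library while the other 2 were within the saline range. Gsdmd was similar in size at -0.35 ± 0.21, from -0.79 to 0.09, with 5 of 8 below every saline library and 1 above all of them. P2rx7 differed by -0.40 ± 0.26, from -0.94 to 0.14. The highest NLRP3i libraries were replicates 6, 7 and 8 for P2rx7 and replicates 6 and 7 for Aim2.

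The narrowest interval belonged to Nek7, from -0.12 to 0.14 around a difference of 0.01. Pycard differed by -0.10 with an interval from -0.33 to 0.13. Casp1 differed by -0.10, from -0.54 to 0.34, Casp4 by 0.11, from -0.38 to 0.60, and Nlrc4 by -0.18, from -0.68 to 0.31. A fold of 2 in either direction lay outside the intervals of Nlrp3, Nlrc4, Aim2, Nek7, P2rx7, Pycard, Casp1, Casp4 and Gsdmd, and inside that of Nlrp1b. These limits hold for the model without covariates. With the proximal tubule marker level as a covariate, Nlrp3 was higher in NLRP3i than in saline libraries by 1.31 ± 0.24 with an adjusted p of 0.00758. Casp4 was then higher by 0.84 ± 0.21 with 0.0262. That covariate itself differed between the 2 groups, with 7 of 10 of its markers called higher in NLRP3i libraries. The adjusted values therefore cannot be told apart from this difference.

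**Figure D3:**
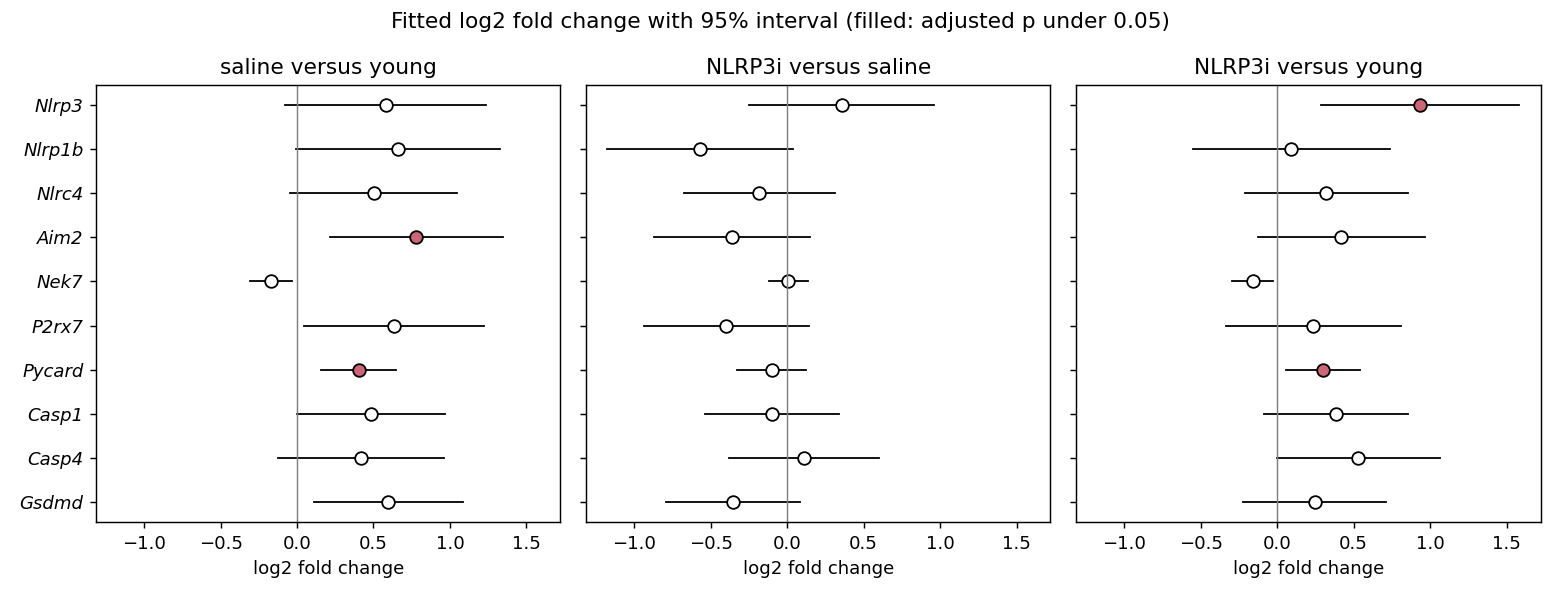
Fitted log2 fold change of each gene (x axis) with its 95% interval in the 3 comparisons, with filled points for an adjusted p under 0.05. Aim2 and Pycard are filled in saline against young, Nlrp3 and Pycard in NLRP3i against young, and none in NLRP3i against saline.

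The third comparison, NLRP3i against young, shares its libraries with the other 2 and is given beside them. Nlrp3 and Pycard were called higher, 2 of 10 genes, where 38.3% of all genes were called, 21.8% as higher and 16.5% as lower. At an unadjusted p under 0.05 the count was 4 of 10, against 47.7% of all genes. No member's groups were apart, as were those of 7.94% of all genes. Nlrp3 was higher by 0.94 ± 0.31, a 1.91-fold difference, with an adjusted p of 0.0224, and all 8 NLRP3i libraries were above the young median. Pycard was higher by 0.30 ± 0.12 with an adjusted p of 0.0457. With only these 2 groups in the fit neither was called, at an adjusted p of 0.0518 for Nlrp3 and 0.105 for Pycard. Nlrp3 was also not called without young replicate 2, at 0.0520, or young replicate 3, at 0.0618.

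Nek7 was lower than in young libraries by a like amount in both middle-aged groups, with -0.17 in saline and -0.16 ± 0.07 in NLRP3i libraries, the latter at an adjusted p of 0.0553. The second difference was called under RLE scaling (adjusted p of 0.0256), DESeq2 (0.0150), the replicate block (0.0322) and the myeloid covariate (0.0199), and in 10 of the 21 fits that left out 1 library. The other 7 of the 11 alternatives gave no call. Over the 11 the difference ran from -0.20 to -0.02, with adjusted p values up to 0.977. Casp4 was at 0.53 ± 0.26 above young in NLRP3i libraries, with an adjusted p of 0.104, against 0.42 in saline libraries. Aim2 was at 0.42 ± 0.26 with an adjusted p of 0.212, Casp1 at 0.39 ± 0.23 with 0.185, and Nlrc4 at 0.32 ± 0.26 with 0.335. Gsdmd at 0.25, P2rx7 at 0.24 and Nlrp1b at 0.09 were the smallest of the positive differences.

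Within each group Nek7 had the smallest spread of the 10 genes. The coefficient of variation of Nek7 was 6.37% in the young, 6.82% in the saline and 8.70% in the NLRP3i group. Nlrp3 varied by 51.6%, 25.2% and 40.3%, and P2rx7 by 41.6%, 20.7% and 39.8%. Pycard varied by 8.93%, 15.2% and 17.4%, close to Nek7 in the young group and above Gsdmd, at 13.6%, in the saline group.

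The same libraries were low or high for most members. Young replicate 1 was the lowest young library for 9 of the 10 genes, Pycard being the exception, and saline replicate 2 was the highest saline library for 7. NLRP3i replicate 3 was the lowest of its group for 5 genes, and replicates 6 and 7 were each the highest for 4. Young replicate 1 also had the lowest summed level of the 12 myeloid markers of any library, 614 CPM, and NLRP3i replicate 3 had the lowest of its group, 1340 CPM. NLRP3i replicates 6, 7 and 8 had the highest of theirs, at 4369, 4301 and 4439 CPM. In the saline group the match was partial. Saline replicate 5, the lowest for 6 genes, had the lowest myeloid sum of its group, 2172 CPM. Saline replicate 3 had the highest sum of any library, 4752 CPM, and was the highest library for 0 genes, while saline replicate 2 was at 4394 CPM.

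**Figure D4:**
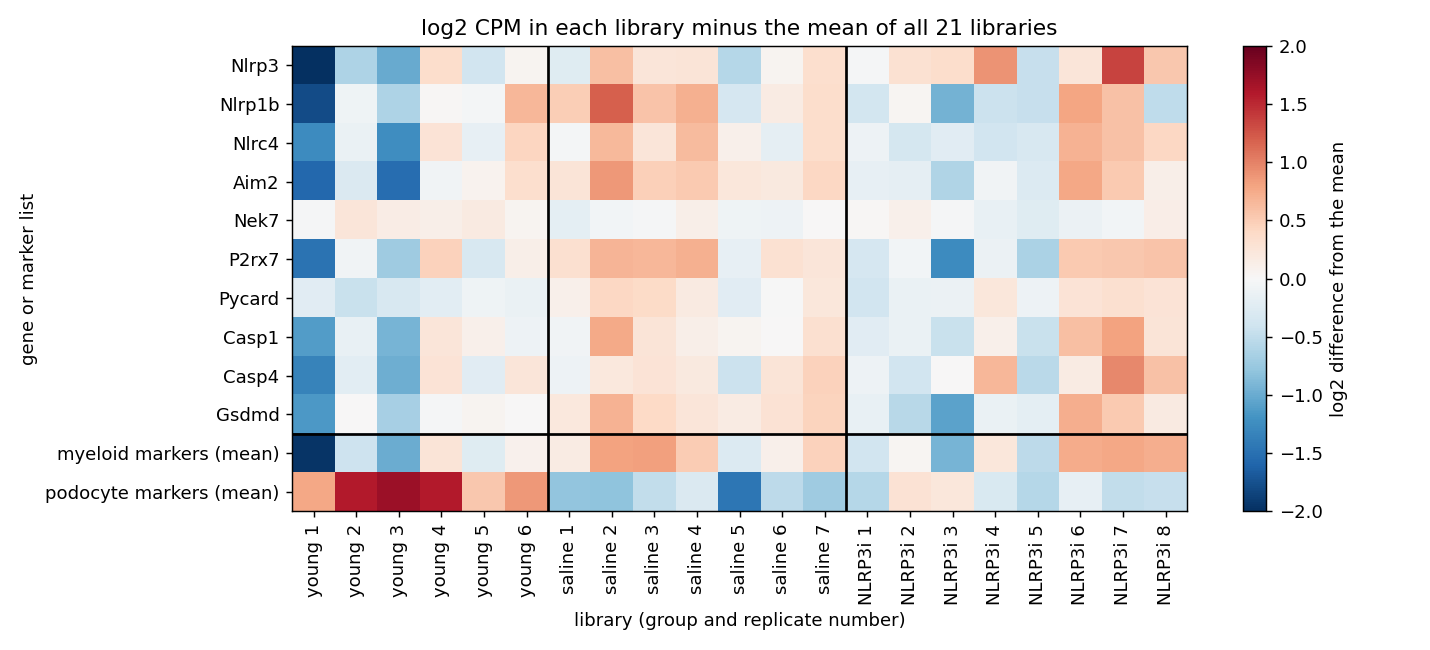
log2 CPM of each gene in each of the 21 libraries minus the mean of all libraries (colour scale, clipped at -2 and 2), with the mean of 12 myeloid and 13 podocyte markers as the bottom rows. Young replicate 1 is low in the myeloid row and in every member but Nek7 and Pycard, and the podocyte row is high in the 6 young libraries.

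As a description, the likeness of each gene's pattern to others was measured by Pearson's r of log2 CPM over the 21 libraries after the group means were taken out. The 36 pairs of members without Nek7 had r between 0.47 and 0.92, with a median of 0.76. The 9 pairs with Nek7 had r between 0.00 and 0.35. The highest pair was Nlrc4 with Aim2 at 0.92, followed by Nlrp3 with Casp4 at 0.92. Libraries share depth and cell makeup, so these values do not separate the genes from their cells of origin.

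Among all 16376 other genes tested, the nearest to Nlrp3 were Tnfaip3 at 0.97, Il1b at 0.97 and Cd14 at 0.97, which encode a brake on NF-kappa-B signalling, a cytokine and a lipopolysaccharide co-receptor. The nearest to P2rx7 were P2ry6 at 0.98, Rab8b at 0.97 and S1pr2 at 0.97, and to Nlrp1b Creb5, Itgax and Slamf9, each at 0.94. Nlrc4 was nearest to Sp110 at 0.94, Ifi209 and Mndal at 0.93, and Aim2 to Coro7 at 0.96, Slc12a9 and Naip5 at 0.95. Casp1 was nearest to Gmip, Ugcg and Card9, each at 0.95, and Casp4 to Rasgef1b at 0.96, Plek and Ccnl1 at 0.95. Gsdmd was nearest to Psmb9, Psmb8 and Csf3r, each at 0.95, of which the first 2 encode immunoproteasome subunits. The nearest genes were less alike for Pycard, with Ube2f at 0.87, Fam118b at 0.85 and Pla2g4a at 0.82, and for Nek7, with Wdfy2 at 0.85, Stxbp5 at 0.79 and Smad2 at 0.76.

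By the same measure, the mean log2 CPM of the 12 myeloid markers had r of 0.96 with P2rx7, 0.90 with Casp1 and 0.65 to 0.86 with the other members except Nek7, for which r was 0.33. With the podocyte markers the 9 genes other than Nek7 had r between -0.20 and 0.24, and Nek7 had 0.38. With 10 proximal tubule markers the 9 had r between -0.81 and -0.51. Other tubule segments were alike, with r between -0.73 and -0.32 for the collecting duct and between -0.67 and -0.40 for the loop of Henle and distal tubule. Of the myeloid markers, 3 of 12 were called higher in saline than in young, 0 of 12 in either direction in NLRP3i against saline, and 2 of 12 higher in NLRP3i than in young. The shares over all genes were 12.2%, 16.8% and 21.8% in the same order. Of the proximal tubule markers, 7 of 10 were called higher in NLRP3i than in saline libraries. Other cell types also moved with age, with 5 of 10 T cell and 4 of 10 B and plasma cell markers called higher and 9 of 10 endothelial, 5 of 9 collecting duct and 5 of 8 mesangial and smooth muscle markers called lower in saline than in young libraries. Of the 7 neutrophil markers in the fit, 2 were called higher in saline than in young libraries. With the T cell markers the 9 members had r between 0.23 and 0.67. The part of these cells in the members' differences was not tested.

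**Figure D5:**
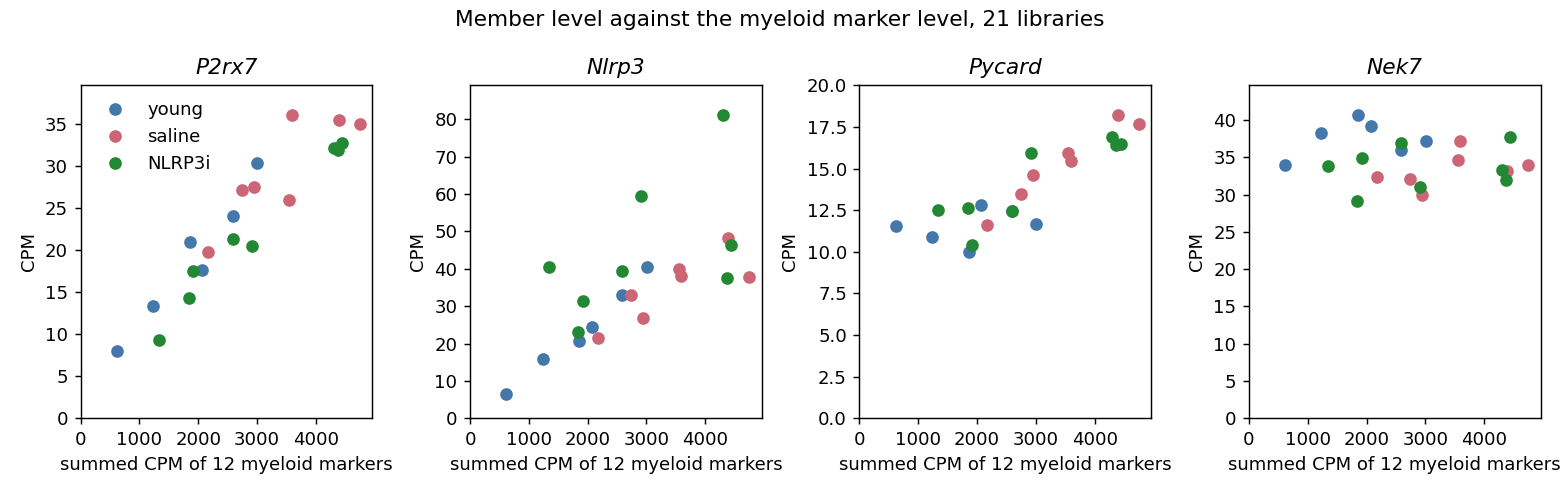
CPM of P2rx7, Nlrp3, Pycard and Nek7 (y axes) against the summed CPM of 12 myeloid markers (x axes) in the 21 libraries, coloured by group. P2rx7 rises along the myeloid level in all 3 groups, Nek7 stays level, and Nlrp3 has its 2 highest points in NLRP3i libraries.

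With the myeloid marker level as a covariate in the fit, the age differences of most members came close to 0. Aim2 was then at 0.22 with an adjusted p of 0.327 and Pycard at 0.18 with 0.266. Nlrp3, Nlrp1b, Nlrc4, P2rx7, Casp1 and Casp4 turned to values between -0.10 and -0.02, none called. Nek7 was called lower, at -0.22 with an adjusted p of 0.0365. In NLRP3i against saline the same covariate gave 2 calls, Nlrp3 higher by 0.60 ± 0.18 with an adjusted p of 0.0228 and P2rx7 lower at -0.24 ± 0.08 with 0.0338. Against young, Nlrp3 remained higher in NLRP3i libraries, at 0.56 with an adjusted p of 0.0204, and P2rx7 was lower at -0.32 with 0.00624. The marker level comes from the same libraries, and the part of myeloid cells in these results was not tested directly.

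The members were then set beside 48 other genes of the inflammasome pathway, of which 44 could be tested. With age, 12 were called higher and 3 lower, where 12.2% of all genes were called higher and 12.4% lower, and their median difference was 0.23, beside 0.02 over all genes. Of the other sensors 4 of 12 rose, of the regulators 4 of 20 rose and 2 fell, and of the effectors and cytokines 4 of 12 rose and 1 fell. Among the largest, Il1a, an alarm cytokine, rose by 1.70 ± 0.37 with an adjusted p of 0.00226. Il18, a substrate of caspase-1, rose by 1.13 ± 0.25 with 0.00236. Il1b, the other cytokine that caspase-1 matures, was not called with age, at an adjusted p of 0.0719. Il1b was far more abundant, at 88.6, 252 and 369 CPM in the young, 239, 468 and 536 in the saline and 289, 418 and 786 in the NLRP3i group. It was called higher in NLRP3i than in young libraries, by 0.92 ± 0.29 with an adjusted p of 0.0154. Against saline it was not called, at 0.19 with an adjusted p of 0.665.

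Il1a ran at 0.846, 1.69 and 2.41 CPM in the young, 2.64, 5.63 and 8.54 in the saline and 1.68, 3.39 and 10.1 in the NLRP3i group. Il18 ran at 0.921, 1.505 and 1.82 CPM in the young, 1.90, 3.41 and 3.78 in the saline and 1.53, 2.52 and 4.89 in the NLRP3i group. In both genes every saline library was above every young one, and the 2 groups were apart in 9.37% of all genes tested. Il1rn, the antagonist of the interleukin-1 receptor, rose by 1.37 ± 0.38 with an adjusted p of 0.0120, and Mefv, the sensor pyrin, by 1.37 ± 0.23 with 0.000288. Naip1, a receptor upstream of NLRC4, rose by 1.16 ± 0.35 with 0.0195, and the membrane channel gene Panx1 by 1.00 ± 0.20 with 0.00106. Naip1 was near the lower end of measurement, at 0.0836 to 0.815 CPM in these 2 groups.

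In NLRP3i against saline, 5 of the 44 genes rose and 3 fell, close to the 16.8% of all genes called, with a median of -0.17. Nlrp6, a sensor of epithelial cells, rose by 1.33 ± 0.24 with an adjusted p of 0.00237, from 15.8, 20.99 and 35.4 CPM in the saline to 29.1, 53.6 and 87.6 in the NLRP3i group. Its difference was 0.47 with an adjusted p of 0.149 when the proximal tubule marker level was a covariate. Txnip, a binding partner of NLRP3 that responds to glucose, fell by 0.65 ± 0.11 on the log2 scale with an adjusted p of 0.00146. Txnip ran at 274, 300 and 399 CPM in the young, 326, 381 and 508 in the saline and 216, 244 and 313 in the NLRP3i group. The last 2 groups did not overlap, as was true of 1.74% of all genes.

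Ninj1, whose protein ruptures the plasma membrane in the last step of lytic death, rose by 0.46 ± 0.12 with an adjusted p of 0.0143. It ran at 33.3, 38.6 and 39.8 CPM in the saline and 43.2, 47.8 and 83.5 in the NLRP3i group, without overlap, as for 1.74% of all genes. Gsdme, another gasdermin, rose by 0.47 ± 0.15 with an adjusted p of 0.0344, and Hsp90ab1, a chaperone of NLRP3, by 0.33 ± 0.11 with 0.0441. Il33 fell by 1.03 ± 0.33 with an adjusted p of 0.0362, at a level of at most 1.63 CPM in both groups. With 1 library left out in turn, the call was kept in 4 of 21 fits for Hsp90ab1, with adjusted p values up to 0.123, in 12 of 21 for Gsdme, up to 0.104, and in 14 of 21 for Il33, up to 0.0746. With the proximal tubule marker level as a covariate only Txnip of these 6 genes kept an adjusted p under 0.05, at a difference of -0.67. Il33 was then at -0.88 with an adjusted p of 0.263 and Hsp90ab1 at 0.48 with 0.0516, so the size of these differences was largely kept, while Gsdme was at 0.16 with 0.649 and Ninj1 at 0.33 with 0.218.

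Against young, NLRP3i libraries had 12 of the 44 genes higher and 8 lower, where 21.8% of all genes were called higher and 16.5% lower, with a median of 0.07, beside 0.08 over all genes. Il1a was higher by 1.45 ± 0.36, Il1rn by 1.20 ± 0.37, Nlrp6 by 1.19 ± 0.26, Naip1 by 1.09 ± 0.35, Mefv by 1.08 ± 0.23 and Il18 by 0.95 ± 0.24, with adjusted p values of 0.00377, 0.0154, 0.00132, 0.0173, 0.00106 and 0.00425.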

How the data were processed

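The members and gene lists were chosen with earlier results of these data known. The authors trimmed reads with Trim Galore, aligned them to mm10 (GRCm38) with Bowtie2 and deposited raw featureCounts counts per gene for 21 libraries. Versions, annotation release, strand setting and the handling of reads with several alignments are not given in the sources used here. Bowtie2 does not split a read across a splice junction, so such reads can be lost. The authors' table of DESeq2-normalized values was not used. Entrez numbers were named from RefSeq (25275) or GENCODE (18), and 1886 stayed unnamed. Transcript lengths are of the longest GENCODE transcript linked to a curated RefSeq transcript, within the RefSeq span of the gene. Groups came from the labels, and each library is 1 mouse.

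Counts were filtered with filterByExpr and tested with edgeR 4.0.16 (TMM, quasi-likelihood, Benjamini-Hochberg) in R 4.3.3, with 3 groups in one fit of 16377 genes. log2 CPM used a prior count of 2. DESeq2 1.42.0, other scalings and filters, thinning to 5804891 counts, marker covariates, a replicate block and each library left out were alternatives. In simulated counts 186 of 200 genes changed by 2 on the log2 scale in saline against young were called, with 7 unchanged genes, of 16216 genes in that fit. The largest fitted difference of a member was 0.94, so the simulation does not show how often differences of the members' size would be called. Text gives all members, up to 6 other inflammasome genes per comparison that passed the test, by size, and the 3 nearest genes per member. Il1b, which did not pass with age, is given beside Il18. Summaries used Python 3.11.15 with pandas 2.3.3.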

Additional observations from a re-analysis of the deposited data

Results flagged for a closer look

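The 10 genes were searched for a library far from the others of its group, in 30 sets of values, by the gap to the nearest library over the group's whole range. One stood out: Casp1 in saline replicate 2, at 12.9 CPM, where the next saline library was at 9.53 and the lowest at 7.23 CPM. The gap was 0.593 of the range, above the critical value of 0.568 for 7 libraries. Chance flags about 1 in 20 groups.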

How the results depend on the processing

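Each fold change named in the text was recomputed under up to 11 alternatives, 523 values in all, of which 435 kept their direction and their side of the threshold, 42 lost and 17 gained a call, and 29 changed direction. The cause was not tested for any change. Without the mitochondrial genes 0 fold changes turned, lost or gained a call. In that setting 30 other results, counts of genes called or mean CPM levels, moved. The proximal tubule level itself differed by group, with 7 of 10 markers called higher in NLRP3i than in saline and also than in young libraries. With the myeloid marker level as a covariate, the age differences turned for Nlrp3 (-0.033), Nlrp1b (-0.063), Nlrc4 (-0.018), P2rx7 (-0.079), Casp1 (-0.052) and Casp4 (-0.10), that of NLRP3i against saline for Casp1 (0.030), and those of NLRP3i against young for Nlrp1b (-0.40), Nlrc4 (-0.045), P2rx7 (-0.32), Casp1 (-0.023) and Gsdmd (-0.17). The members called were then 1 with age and 2 in NLRP3i against saline. With the proximal tubule level as a covariate, NLRP3i against saline turned for Nlrp1b (0.14), Nlrc4 (0.43), Aim2 (0.14), P2rx7 (0.34), Pycard (0.12), Casp1 (0.41) and Gsdmd (0.082), with 2 members (Nlrp3 at 1.31 and Casp4 at 0.84), 4 other inflammasome genes and 697 of all genes called, and 7 members were called in NLRP3i against young. The podocyte level, which separates young from middle-aged libraries, left 0 of all genes called with age and 27 in NLRP3i against young, with 0 members and 0 other inflammasome genes in both, and turned Nek7 with age (0.018) and Gsdmd in NLRP3i against young (-0.071).

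The near-zero difference of Nek7 in NLRP3i against saline turned under RLE scaling (-0.011), the stricter filter (-1.65e-05), 2 groups only (-0.012), the replicate block (-0.017), thinning (-0.0081), the podocyte level (-0.038) and DESeq2 (-0.011). Thinned libraries without mitochondrial genes left 1 member called with age, 1 in NLRP3i against young and 4 other inflammasome genes in NLRP3i against saline. With 2 groups only, 0 members were called in NLRP3i against young.

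Replicate numbers were shared between groups, but same-numbered libraries did not deviate together, with r from -0.06 to 0.35, -0.14 to 0.33 and -0.01 to 0.40 in the 3 comparisons. The replicate block gave 2, 0 and 2 members called and turned Casp4 in NLRP3i against saline (-0.0060), while Pycard in NLRP3i against young lost its call (0.22, adjusted p of 0.167) and Nek7 gained one (-0.19, adjusted p of 0.0322).

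Leaving out each of the 21 libraries gave 0 to 3 members called with age, 0 to 0 in NLRP3i against saline and 0 to 3 in NLRP3i against young, 3 to 9 other inflammasome genes and 1523 to 3295 of all genes in NLRP3i against saline. Ranges that crossed 0 were those of Nek7 (-0.036 to 0.037), Casp1 (-0.23 to 0.010, above 0 without saline replicate 2) and Casp4 (-0.027 to 0.20, below 0 without NLRP3i replicate 7) in that comparison, and of Nlrp1b in NLRP3i against young (-0.10 to 0.32). Pycard in NLRP3i against young was not called in 16 of these 21 fits.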
